A study of Mus musculus with 36 samples.

Results

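The regenerating (Reg) and trefoil factor (Tff) genes of the mouse were examined in islets of Langerhans, the clusters of hormone cells in the pancreas. The set was chosen with earlier results of these data known, and it leaves out Reg4, a further Reg gene that was measured. It held 9 genes: Reg1, Reg2, Reg3a, Reg3b, Reg3d, Reg3g, Tff1, Tff2 and Tff3. Of these, 6 were measured by a transcript cluster, the probes assigned to 1 transcription unit, that carried their symbol alone: Reg1 (cluster 6947176), Reg2 (6947175), Reg3g (6954810), Tff1 (6854790), Tff2 (6854788) and Tff3 (6854787). They are 6 of the 14860 genes with such a cluster. Reg3a, Reg3b and Reg3d were not analysed here, since the annotation used holds no cluster with only their symbol. Islet RNA of 18 male C57BL/6N mice was run on Mouse GeneChip Exon 1.0 ST arrays, with 1 array per mouse. The 4 groups were KO HFD (4 arrays), WT HFD (4 arrays), KO CD (5 arrays) and WT CD (5 arrays). KO mice lack a coding exon of Gnaz in every tissue, which removes the inhibitory G protein subunit Gαz from the whole body and not from islets alone, and WT mice are their controls. HFD is a high-fat diet with 45 kcal% fat and CD a control diet with 10 kcal% fat, each given for 16 weeks from 11 weeks of age. Age at islet isolation is 27 weeks by the methods, 6 months by the sample labels and 37 to 40 weeks by the deposited protocol, and the files do not settle which holds. Islets were freed with collagenase and picked by hand. Arrays are named by group and by the islet number of the sample title.

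Reg proteins are small secreted lectins that were first studied in the regenerating and inflamed pancreas. Reg1 is a product of acinar cells, the enzyme-secreting cells around the islets, and Reg3g encodes an antibacterial lectin of the intestinal lining. Trefoil factors are small secreted peptides held in a clover-leaf fold by disulfide bonds, and they protect and repair mucous surfaces. Tff1 marks surface mucous cells of the stomach, Tff2 marks mucous neck cells of the stomach and Brunner's glands of the duodenum, and Tff3 marks goblet cells of the intestine. Expression of several Reg genes in the gut and pancreas follows cytokines such as interleukin-22 and interleukin-6.

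The genes of the set lie in runs of neighbours. In the RefSeq annotation of GRCm38.p6, chromosome 6 carries Reg3b, Reg3d, Reg3a, Reg2, Reg1 and Reg3g in that order with no other protein-coding gene between them, and chromosome 17 carries Tff3, Tff2 and Tff1. Of the 9 genes, 6 have a promoter in the RefSeq promoter table (GRCm38.p6), among them 3 that were measured. Their 250 bases before the transcription start are shown because the 3 genes varied together across arrays, as described after them. The lines run 5′ to 3′ on the gene's strand, at chr6:78425733-78425982 (plus strand) for Reg1, chr6:78404905-78405154 (plus strand) for Reg2 and chr6:78468875-78469124 (minus strand) for Reg3g. Capitals mark the fixed letters of TATAAAA and of a composite of the kind bound by PTF1, the transcription factor complex of acinar cells, which was searched as CANCTG, any 6 bases and TTCCCA.
Reg1: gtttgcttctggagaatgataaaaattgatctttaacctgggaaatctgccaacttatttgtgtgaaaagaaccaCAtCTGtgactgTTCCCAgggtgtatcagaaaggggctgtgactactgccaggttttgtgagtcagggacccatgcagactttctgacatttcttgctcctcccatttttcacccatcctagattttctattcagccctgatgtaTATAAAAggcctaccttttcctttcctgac
Reg2: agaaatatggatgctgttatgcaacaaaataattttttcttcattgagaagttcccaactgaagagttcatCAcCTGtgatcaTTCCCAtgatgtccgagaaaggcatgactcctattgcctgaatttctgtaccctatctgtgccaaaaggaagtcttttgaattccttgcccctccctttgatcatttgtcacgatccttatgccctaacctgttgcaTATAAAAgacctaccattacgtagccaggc
Reg3g: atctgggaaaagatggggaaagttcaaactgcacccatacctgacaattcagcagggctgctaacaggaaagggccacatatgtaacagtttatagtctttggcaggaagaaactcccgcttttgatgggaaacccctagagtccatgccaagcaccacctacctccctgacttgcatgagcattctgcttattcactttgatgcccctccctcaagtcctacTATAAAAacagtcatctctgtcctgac

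The composite stood 175 to 158 bases before the start of Reg1 and 179 to 162 bases before the start of Reg2. It was found in 9 of 32851 mouse promoters of this length (0.0274%), with both strands searched, and in none of the promoters of the 4 Reg3 genes. Beside Reg1 and Reg2, these belong to Ank2, Ccdc30, Tango2, Gm16010, Gm31401, Gm51927 and Gm52886. None of those genes is on the acinar lists used below, so the composite as searched does not mark the listed acinar genes. TATAAAA lay 30 to 24 bases before the start of both Reg1 and Reg2 and 27 to 21 bases before that of Reg3g. It was also present in Reg3b, and 4.98% of all promoters hold it. The E-box CACCTG, present in 17.2% of promoters, was found in Reg2, where it is part of the composite, and in Reg3a, Reg3b and Reg3d. TTCNNNGAA, the letters that STAT factors recognise, was found in Reg3b and Reg3d and in 7.02% of all promoters. The motifs were chosen after the sequences and earlier results had been seen, and a match to letters is a description and not a binding site.

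Of the facts that concern all 18 arrays, a few touch the results. Gnaz read 10.03 to 10.56 on the log2 scale in the 9 KO arrays and 11.02 to 11.26 in the 9 WT arrays, with no overlap. The mean of 10 islet endocrine genes (of 11 listed) was 13.02 to 13.18 in KO HFD (13.25 in KO HFD 11), 13.22 to 13.39 in WT HFD, 13.25 to 13.46 in KO CD and 13.22 to 13.31 in WT CD arrays. The study left out 1 KO HFD array without naming it. It was taken to be KO HFD 11 after group differences of the genes in the study's own list had been recomputed without each KO HFD array in turn. The group means, standard deviations (SD) and fits are therefore over 17 arrays (KO HFD 10, 17 and 18), and values over all 18 are given where they change a call or a count stated here. KO HFD 11 stood apart in 22 intestinal epithelium genes (of 29 listed), whose mean was 10.54 there and 7.24 to 7.37 in the other 17 arrays. KO HFD 10 was the highest array in acinar genes, by a smaller margin. The mean of 14 digestive enzymes (of 25 listed) was 13.83 in KO HFD 10 and 12.69 to 13.68 in the other arrays. That of 16 other acinar genes (of 17 listed) was 11.55 in KO HFD 10 and 9.41 to 11.10 in the others. Values are log2 robust multiarray average (RMA) values, in which the background-corrected and quantile-normalised probes of a cluster are summarised to 1 number and a step of 1 is a doubling. Levels of different genes are not set against each other, since probes differ in brightness. A call means an adjusted p under 0.05 in limma, a linear model that shares information on the spread across genes, with p-values adjusted for all 14860 genes by Benjamini-Hochberg.

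The measured genes differed widely in how much they varied. Over the 17 arrays, Reg2 had the largest SD of all 14860 genes (2.08 on the log2 scale), with a 134-fold range between the lowest and the highest array. Reg3g ranked 3 (SD 1.56, a 45.9-fold range), Tff2 ranked 25 (SD 0.81, a 6.68-fold range) and Reg1 ranked 122 (SD 0.56, a 3.62-fold range). The median SD of all genes was 0.14. Tff1 (SD 0.17) and Tff3 (SD 0.13) lay near that median. Their means over all 18 arrays, 7.41 and 7.18, were under 7.52, the 95th percentile of 718 olfactory receptor genes, which are taken here as genes not expected in islets.

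**Figure D1:**
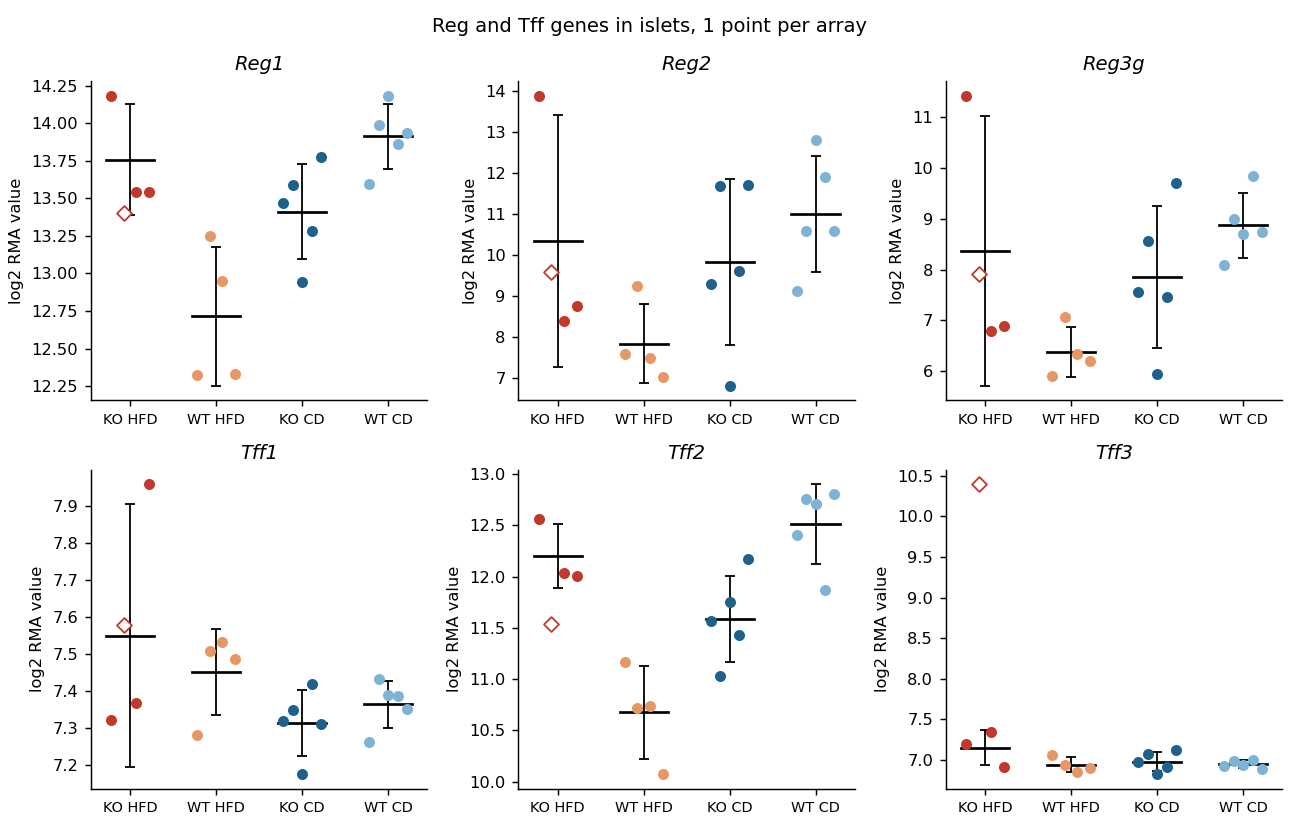
Log2 RMA values of the 6 measured genes (vertical axes, each with its own scale) in KO HFD, WT HFD, KO CD and WT CD islets, 1 point per array. Bars are the mean and SD over 17 arrays, and the open diamond is KO HFD 11, which is outside them. Reg1 and Tff2 lay higher in every KO HFD array than in every WT HFD array, while for Reg2 and Reg3g KO HFD 10 stood far above the other KO HFD arrays and for Tff3 KO HFD 11 did.

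Reg1, the secreted lectin of acinar cells, was higher in KO HFD islets than in WT HFD islets and lower in WT HFD than in WT CD islets. It read 14.18, 13.54 and 13.54 in KO HFD 10, 17 and 18, and 13.40 in KO HFD 11. In WT HFD 7, 8, 9 and 16 it read 12.33, 13.25, 12.95 and 12.33. The lowest KO HFD array was above the highest WT HFD array, with KO HFD 11 as well as without it. In KO CD 1, 2, 3, 12 and 13 it read 13.47, 13.59, 12.94, 13.28 and 13.78, and in WT CD 4, 5, 6, 14 and 15 it read 13.59, 13.99, 14.18, 13.86 and 13.94. Every WT CD array was above every WT HFD array, whereas KO HFD overlapped KO CD, and KO CD overlapped WT CD. By mean, the groups ran from WT CD (13.91 ± 0.21, SD, n = 5) through KO HFD (13.76 ± 0.37, SD, n = 3) and KO CD (13.41 ± 0.32, SD, n = 5) to WT HFD (12.71 ± 0.46, SD, n = 4), and each group overlapped its neighbour in this order.

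The log2 fold change of Reg1 between KO HFD and WT HFD was 1.04 (standard error, SE, 0.23), a 2.06-fold difference (limma adjusted p = 0.00504). Between WT HFD and WT CD it was −1.20 (SE 0.21, limma adjusted p = 0.0294). The genotype by diet interaction, the KO minus WT difference on HFD less that on CD, was 1.54 (SE 0.30, limma adjusted p = 0.00409). KO HFD versus KO CD (0.34, SE 0.22, limma adjusted p = 0.230) and KO CD versus WT CD (−0.50, SE 0.19, limma adjusted p = 0.257) did not pass.

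Reg2, a close relative of Reg1 in the mouse pancreas, was the most variable gene of the arrays. It read 13.88 in KO HFD 10, but 8.40 and 8.75 in KO HFD 17 and 18 and 9.58 in KO HFD 11. The values in WT HFD 7, 8, 9 and 16 were 7.58, 9.24, 7.50 and 7.03. KO HFD 17 and 18 lay below WT HFD 8 and above the other WT HFD arrays. KO CD islets gave 9.29, 11.69, 6.81, 9.61 and 11.69 in arrays 1, 2, 3, 12 and 13, and WT CD islets 9.13, 10.58, 12.80, 11.90 and 10.59 in arrays 4, 5, 6, 14 and 15. The lowest of the 17 arrays was thus KO CD 3 and the highest KO HFD 10, both KO. Group means were 10.34 ± 3.07 (SD, n = 3) in KO HFD, 7.84 ± 0.97 (SD, n = 4) in WT HFD, 9.82 ± 2.02 (SD, n = 5) in KO CD islets and 11.00 ± 1.41 (SD, n = 5) in WT CD islets.

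By size, the Reg2 log2 fold change ranked 2 among 14860 genes between KO HFD and WT HFD (2.51, SE 1.28), 1 in WT HFD versus WT CD (−3.16, SE 1.13) and 1 in the interaction (3.69, SE 1.66). None passed (limma adjusted p = 0.153, 0.381 and 0.0983 in that order). Without KO HFD 10, which leaves 2 KO HFD arrays, the difference between KO HFD and WT HFD was 0.74 (SE 1.15). The difference between KO HFD and KO CD was 0.52 (SE 1.23) with KO HFD 10 and −1.25 (SE 1.11) without it.

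Reg3g, the antibacterial lectin, followed the same arrays as Reg2. It read 11.42 in KO HFD 10, 6.79 and 6.88 in KO HFD 17 and 18, and 7.91 in KO HFD 11. In WT HFD 7, 8, 9 and 16 it read 5.90, 7.07, 6.33 and 6.21. As for Reg2, KO HFD 17 and 18 lay below WT HFD 8 and above the other WT HFD arrays. In KO CD 1, 2, 3, 12 and 13 it read 7.57, 8.56, 5.95, 7.47 and 9.71, and in WT CD 4, 5, 6, 14 and 15 it read 8.08, 8.99, 8.71, 9.84 and 8.73. Every WT HFD array was below every WT CD array. The means were 8.37 ± 2.65 (SD, n = 3) in KO HFD, 6.38 ± 0.50 (SD, n = 4) in WT HFD, 7.85 ± 1.39 (SD, n = 5) in KO CD islets and 8.87 ± 0.64 (SD, n = 5) in WT CD islets.

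The log2 fold change of Reg3g between KO HFD and WT HFD was 1.99 (SE 0.93, limma adjusted p = 0.118). Between WT HFD and WT CD it was −2.49 (SE 0.82, limma adjusted p = 0.323), and the interaction was 3.01 (SE 1.21, limma adjusted p = 0.0657), so none passed. The interaction passed without KO HFD 17 (3.79), KO HFD 18 (3.75) or KO CD 13 (3.47), with limma adjusted p = 0.0311 to 0.0408. Without KO HFD 10, whose distance from its group enters the shared estimate of the spread, the SE in WT HFD versus WT CD fell to 0.55 and the same difference passed (limma adjusted p = 0.0402). It passed too when only the WT HFD and WT CD arrays were fitted (SE 0.32, limma adjusted p = 0.00686). Without KO HFD 10, the difference between KO HFD and WT HFD was 0.46 (SE 0.70), and that between KO HFD and KO CD changed sign, to −1.01 (SE 0.68) from 0.51 (SE 0.89) with it. KO HFD 10 was also high in genes of the acute-phase and antimicrobial list: Lcn2, which encodes the iron-withholding protein lipocalin 2, read 12.60 there, 9.55 in WT CD 14 and 8.85 in KO CD 13, and 7.01 to 8.05 in the other 15 arrays. These 3 arrays also held the 3 highest Reg3g values. The part of these genes in the Reg3g values was not tested.

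Within groups, the 3 Reg genes moved together and apart from Tff2. WT HFD 8 was the highest WT HFD array and KO CD 3 the lowest KO CD array for Reg1, Reg2 and Reg3g alike, while KO CD 3 was the second highest KO CD array for Tff2. KO CD 2 was the lowest KO CD array for Tff2 and the second highest for each of the 3 Reg genes. With group means removed, Pearson's r over the 17 arrays was 0.91 between Reg2 and Reg3g, 0.82 between Reg1 and Reg2 and 0.74 between Reg1 and Reg3g. Between each of the 3 Reg genes and Tff2 it was 0.17 to 0.28. Without KO HFD 10 and with group means kept, r was 0.92 between Reg2 and Reg3g and 0.83 between Reg1 and each of them. On that measure, r with Tff2 was 0.80 for Reg1, 0.53 for Reg2 and 0.59 for Reg3g. The arrays share their groups and 1 normalization. The Reg genes are close paralogs, and how far the probes of a Reg gene also bind transcripts of its relatives was not tested.

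Tff2 was higher in KO HFD islets than in WT HFD islets and lower in WT HFD than in WT CD islets. It read 12.56, 12.04 and 12.00 in KO HFD 10, 17 and 18 and 11.54 in KO HFD 11. In WT HFD 7, 8, 9 and 16 it read 11.17, 10.72, 10.73 and 10.07. Each of the 4 KO HFD arrays lay above each WT HFD array. It read 11.57, 11.03, 11.76, 11.43 and 12.17 in KO CD 1, 2, 3, 12 and 13, and 12.41, 12.76, 12.71, 11.87 and 12.81 in WT CD 4, 5, 6, 14 and 15. WT CD and WT HFD did not overlap, and KO CD lay between them, reaching into both. The order by mean was WT CD (12.51 ± 0.39, SD, n = 5), KO HFD (12.20 ± 0.31, SD, n = 3), KO CD (11.59 ± 0.42, SD, n = 5) and WT HFD (10.67 ± 0.45, SD, n = 4), the same order as for Reg1, and neighbours overlapped.

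The log2 fold change of Tff2 between KO HFD and WT HFD was 1.53 (SE 0.28), a 2.88-fold difference (limma adjusted p = 0.00176). Between WT HFD and WT CD it was −1.84 (SE 0.24, limma adjusted p = 0.0157), which had the smallest p of all 14860 genes in that comparison. The interaction was 2.45 (SE 0.36, limma adjusted p = 0.00254). KO HFD versus KO CD (0.61, SE 0.27, limma adjusted p = 0.0701) and KO CD versus WT CD (−0.92, SE 0.23, limma adjusted p = 0.131) did not pass. The difference between KO HFD and KO CD passed without WT HFD 16 (0.61), KO CD 13 (0.76) or WT CD 14 (0.61), with limma adjusted p = 0.0245 to 0.0496. Without KO HFD 10 the log2 difference between KO HFD and WT HFD was 1.35 (SE 0.31, limma adjusted p = 0.0108).

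Tff3, the trefoil factor of goblet cells, was under the olfactory receptor percentile in all arrays but KO HFD 11. It read 10.39 in KO HFD 11, against 7.20, 7.34 and 6.92 in KO HFD 10, 17 and 18. It read 6.85 to 7.07 in WT HFD, 6.83 to 7.12 in KO CD and 6.89 to 7.01 in WT CD islets. In KO HFD 11, 21 of the 22 intestinal epithelium genes were at their highest of all 18 arrays, 15 of them over 2-fold above every other array. Reg4, a further member of the Reg family, in the acute-phase and antimicrobial list, read 8.22 there and 5.99 to 6.39 elsewhere. Over all 18 arrays the log2 fold change of Tff3 in KO HFD versus WT HFD was 1.02 (SE 0.49, limma adjusted p = 0.139), and over 17 it was 0.21 (SE 0.09, limma adjusted p = 0.0830). The larger value rests on KO HFD 11. Over 17 arrays, leaving out KO HFD 18 as well brought Tff3 past the threshold in KO HFD versus WT HFD (0.33, limma adjusted p = 0.0145), in KO HFD versus KO CD (0.29, 0.0129) and in the interaction (0.30, 0.0456). The part of the intestinal genes in the Tff3 value was not tested.

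Tff1, the trefoil factor of the gastric surface, was flat apart from KO HFD 18. It read 7.96 there, and 7.32, 7.58 and 7.37 in KO HFD 10, 11 and 17. WT HFD gave 7.28 to 7.53, KO CD 7.17 to 7.42 and WT CD 7.26 to 7.43. KO HFD 18 also had the highest mean of 6 stomach epithelium genes (of 11 listed), 7.87 against 7.22 to 7.50 in the other 17 arrays. Gkn2, 1 of those 6 genes, encodes a gastrokine secreted by the same gastric cells. It read 8.63 in KO HFD 18 and 5.33 to 5.99 in the other 17. The lead of KO HFD 18 in the stomach mean rests on Gkn2. The remaining genes of the list did not average highest in that array. The Tff1 log2 difference between KO HFD and WT HFD was 0.10 (SE 0.12, limma adjusted p = 0.566), and −0.11 (SE 0.08) without KO HFD 18. Between KO HFD and KO CD it was 0.24 (SE 0.11, limma adjusted p = 0.0950), which passed without KO HFD 10 (0.35, limma adjusted p = 0.0258) or KO HFD 17 (0.33, limma adjusted p = 0.0472) and was 0.03 without KO HFD 18. The part of the stomach genes in the Tff1 value was not tested.

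**Figure D2:**
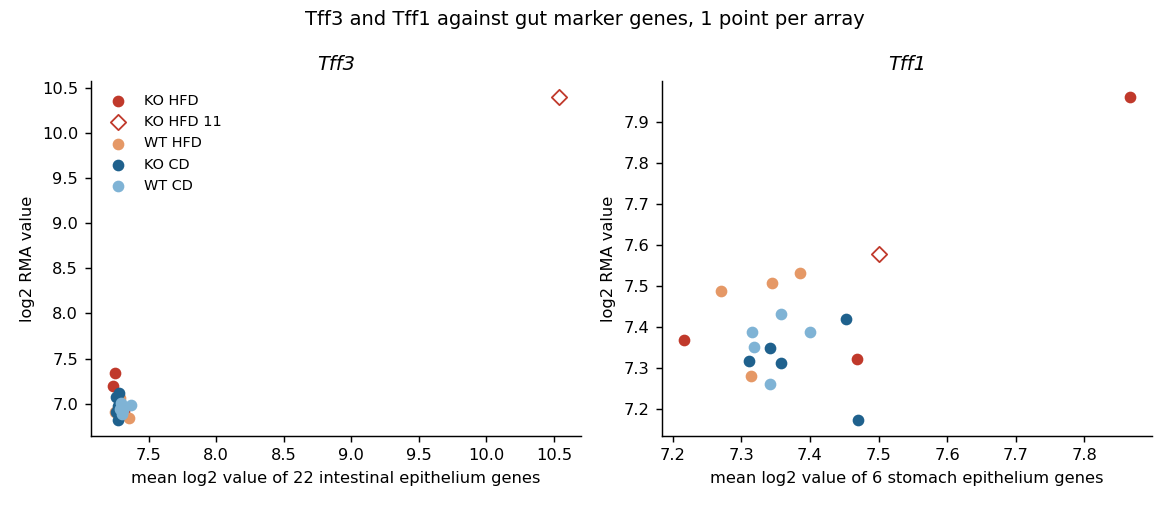
Log2 RMA value of Tff3 against the mean log2 value of 22 intestinal epithelium genes (left) and of Tff1 against that of 6 stomach epithelium genes (right), 1 point per array, coloured by group. KO HFD 11 (open diamond) lies alone at 10.54 and 10.39 on the left. KO HFD 18 lies at the upper end of both axes on the right, where its lead in the stomach mean rests on Gkn2.

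Set side by side, the comparisons called few of the 6 genes, and always the same 2. Between KO HFD and WT HFD, Reg1 and Tff2 were called, both higher (2 of 6). Over all genes 29.4% were called in that comparison and 1.32% were called higher. In the interaction the same 2 were called, both positive, against 32.6% of all genes called and 1.45% called positive. In WT HFD versus WT CD islets these 2 were called lower, where 0.188% of all genes were called and 0.168% were called lower. No member was called in KO HFD versus KO CD (46.1% of all genes called) or in KO CD versus WT CD (0.155%). At an unadjusted p under 0.05, Tff2 and Tff1 passed in KO HFD versus KO CD, where 7795 of 14860 genes did. Tff2 and Reg1 passed it in KO CD versus WT CD, where 2322 genes did. The median log2 fold change of the 6 genes was 1.29 between KO HFD and WT HFD and −1.52 in WT HFD versus WT CD, against −0.13 and 0.01 over all genes. These comparisons share arrays, so their values are not independent.

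**Figure D3:**
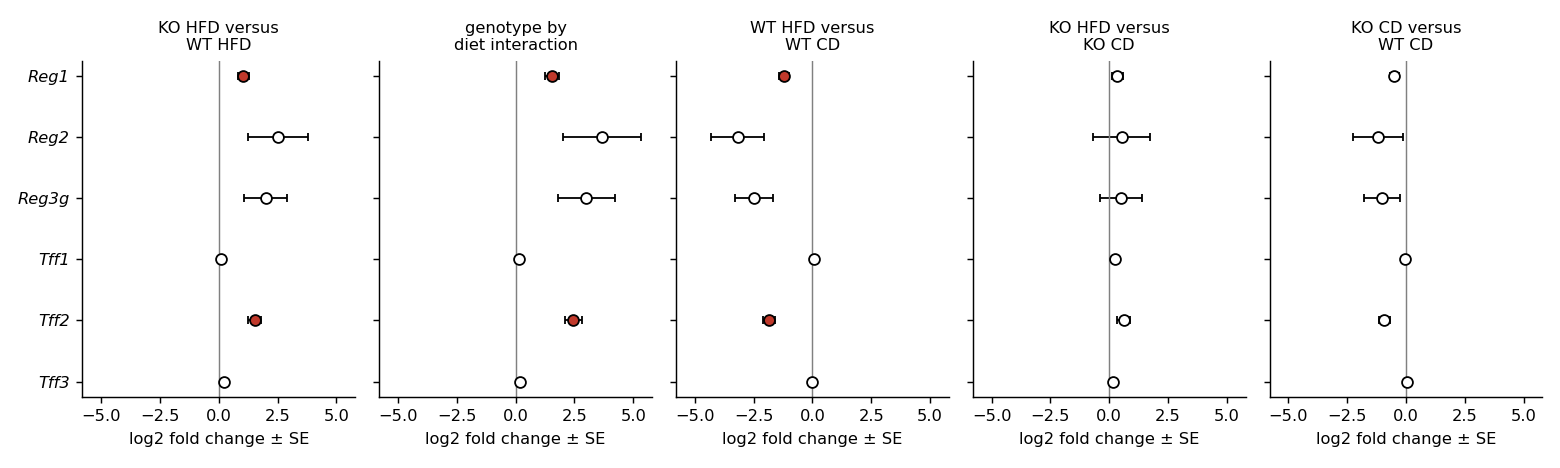
Log2 fold change of each gene in 5 comparisons over 17 arrays, with bars of 1 SE. Filled points passed at a limma adjusted p under 0.05. Reg1 and Tff2 passed in KO HFD versus WT HFD, in the interaction and in WT HFD versus WT CD, while the larger Reg2 and Reg3g differences carried larger errors.

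The background of these calls moves with scaling. KO HFD arrays had lower values over all genes, so that 196 genes were called higher and 4176 lower in KO HFD versus WT HFD. Median centring gave 731 and 795, quantile normalization gave 716 and 924 and cyclic loess gave 786 and 769. Between KO HFD and KO CD it was 215 higher and 6632 lower as deposited, and 3265 and 1135, 1246 and 1177, and 1170 and 1152 under the same 3 scalings. For the interaction the split was 216 and 4633 as deposited, against 692 and 497, 484 and 610, and 559 and 469. For KO CD versus WT CD it was 21 and 2, against 19 and 9, 28 and 12, and 31 and 22. Reg1 and Tff2 kept their calls and directions in KO HFD versus WT HFD under all 3, with log2 fold changes of 1.04 to 1.21 and of 1.70 to 1.72. Tff3 was called higher in that comparison after median centring (0.38, limma adjusted p = 0.0135) and after quantile normalization (0.28, limma adjusted p = 0.0497).

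The calls in WT HFD versus WT CD were less firm than those in KO HFD versus WT HFD. Leaving out 1 of the 17 arrays at a time, Reg1 and Tff2 passed in KO HFD versus WT HFD and in the interaction in all 17 fits. In WT HFD versus WT CD, Reg1 missed the threshold without WT HFD 7, 9 or 16, KO CD 1, or WT CD 5, 6 or 15 (limma adjusted p = 0.0511 to 0.113), with log2 fold changes of −1.28 to −1.07. Tff2 missed it without WT HFD 9 or 16, or WT CD 5, 6 or 15 (limma adjusted p = 0.0749 to 0.0836), with −1.86 to −1.64. In those 5 fits limma called none of the 14860 genes in this comparison, with 966 to 1304 genes at an unadjusted p under 0.05. Reg1 alone also missed without WT HFD 7 or KO CD 1, where 42 and 10 genes were called. The titles number the islets 1 to 18, and some differences changed sign between numbers 1 to 11 and 12 to 18. Reg1 and Tff2 kept their direction in KO HFD versus WT HFD and in WT HFD versus WT CD. The Tff2 difference between KO HFD and WT HFD was 1.69 (1 against 3 arrays) and 1.95 (2 against 1), and that of Reg1 was 1.34 and 1.21. Reg2 differed by 5.78 and 1.55 and Reg3g by 4.99 and 0.63. The Tff2 difference between WT HFD and WT CD was −1.75 (3 against 3 arrays) and −2.27 (1 against 2), and that of Reg1 was −1.08 and −1.57. Between KO HFD and KO CD, Reg2 differed by 4.62 (1 against 3 arrays) and −2.08 (2 against 2) and Reg3g by 4.06 and −1.75, where KO HFD 10 is the array of the lower numbers. Tff1 differed by −0.12 and 0.18 between KO HFD and WT HFD, and Tff3 by 0.00030 and −0.04 between WT HFD and WT CD.

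Acinar genes moved with the same groups. The 14 digestive enzymes averaged 13.43 to 13.83 in KO HFD, 12.69 to 13.16 in WT HFD, 13.10 to 13.54 in KO CD and 13.35 to 13.68 in WT CD arrays. KO HFD and WT HFD did not overlap. Of the 14, 13 were called higher in KO HFD versus WT HFD (median log2 fold change 0.52) and 8 were called lower in WT HFD versus WT CD (−0.51). Of 16 other acinar genes, 11 were called higher (1.15) and 8 lower (−1.33) in these comparisons, with none called in the other direction. Over all 18 arrays these counts were 11 and 6 for the enzymes and 12 and 7 for the others. Of 10 islet endocrine genes, 4 were called lower in KO HFD versus WT HFD and none higher (2 lower over 18 arrays). Over all genes, 4176 of 14860 were called lower in that comparison. The endocrine median log2 fold change was −0.15, near the −0.13 of all genes. The endocrine mean did not overlap between these groups over 17 arrays but did with KO HFD 11. After quantile normalization 5 endocrine genes were called lower, where 924 of all genes were. None was called after median centring or cyclic loess. The part of the endocrine genes in the Reg and Tff values was not tested. Tff2 tracked the enzyme mean at r = 0.98 over the 17 arrays and at 0.95 with group means removed. For Reg1, Reg2 and Reg3g the values were 0.82, 0.64 and 0.69, and 0.43, 0.38 and 0.43 with group means removed. The Reg genes lay closer to the mean of the 16 other acinar genes, at r = 0.84, 0.73 and 0.80. With group means removed these were 0.51, 0.57 and 0.67. For Tff2 the values with that list were 0.95 and 0.84. KO CD 2 and KO CD 3 show Reg2 apart from the enzymes: the enzyme mean was 13.10 and 13.31, Tff2 read 11.03 and 11.76, and Reg2 read 11.69 and 6.81. In whole islet RNA, fewer acinar cells and less RNA per acinar cell cannot be told apart.

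**Figure D4:**
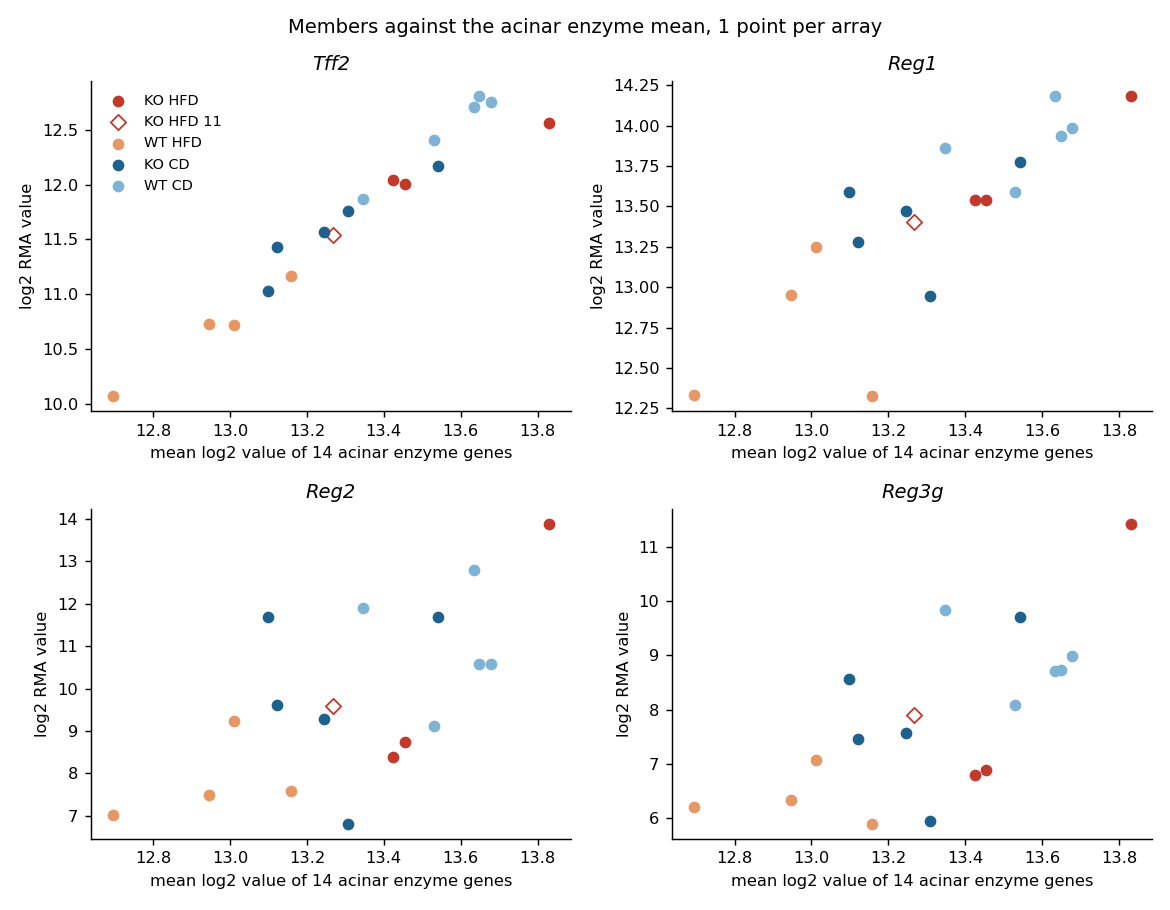
Log2 RMA value of Tff2, Reg1, Reg2 and Reg3g (vertical axes) against the mean log2 value of 14 acinar digestive enzyme genes (horizontal axes), 1 point per array, coloured by group, with KO HFD 11 as an open diamond. Tff2 lies along a narrow band (r = 0.98 over 17 arrays), and the 3 Reg genes scatter more widely (r = 0.64 to 0.82).

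With the acinar enzyme mean of each array as a covariate in the fit, none of the 6 genes was called in KO HFD versus WT HFD, in WT HFD versus WT CD or in the interaction. The Tff2 difference between KO HFD and WT HFD was then 0.20 (SE 0.15, limma adjusted p = 0.421) and that of Reg1 was 0.54 (SE 0.35, limma adjusted p = 0.339). Over all genes, 100 were called in KO HFD versus WT HFD and none in WT HFD versus WT CD or the interaction under this fit, with 628 and 3394 genes at an unadjusted p under 0.05 in the last 2. For Reg2 and Reg3g the differences between KO HFD and WT HFD were 0.04 (SE 1.96) and −0.05 (SE 1.39). The enzyme mean itself separates KO HFD from WT HFD, so the covariate and the group share variation. Whether the acinar genes account for the Reg and Tff differences was not tested.

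**Figure D5:**
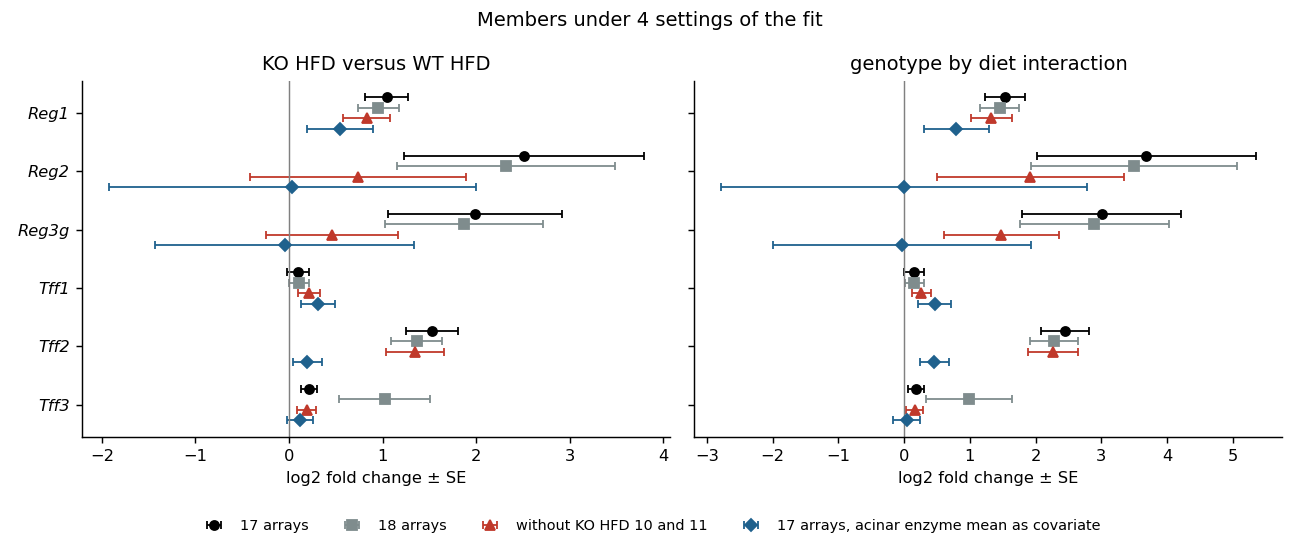
Log2 fold change with 1 SE for each gene in KO HFD versus WT HFD (left) and in the interaction (right), over 17 arrays, over 18 arrays, without KO HFD 10 and 11, and with the acinar enzyme mean as a covariate. Tff2 lies at 1.53, 1.36, 1.35 and 0.20 on the left, Reg2 moves to 0.74 without KO HFD 10, and Tff3 reaches 1.02 with all 18 arrays.

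Genes that act upstream or alongside were read from 3 lists. The first holds the Reg receptor and the cytokine input to Reg genes, of which 15 were measured. In KO HFD versus WT HFD, 1 of them was called higher and 2 lower, where 196 and 4176 of all 14860 genes were. Their median log2 fold change was −0.03 against −0.13 over all genes. The split of the list depends on scaling. After median centring 2 were called higher, and 4 after quantile normalization or cyclic loess, with none lower and medians of 0.14 under each. Over all 18 arrays 1 was higher and 1 lower. Il22ra1, the receptor subunit through which epithelial cells sense interleukin-22, read 10.82, 8.32 and 8.47 in KO HFD 10, 17 and 18 and 7.93, 7.77, 7.90 and 7.47 in WT HFD 7, 8, 9 and 16. It rose by 1.43 on the log2 scale (SE 0.45, limma adjusted p = 0.0269), and its interaction was 2.31 (SE 0.59, limma adjusted p = 0.0105). KO HFD 10 was its highest array, and the groups did not overlap. Il17ra and Il17rc, receptor subunits for interleukin-17, were called lower (−0.26 and −0.22, limma adjusted p = 0.0169 and 0.0334), where all genes had a median of −0.13, and neither passed under the 3 scalings (−0.09 to −0.07 and −0.05 to −0.02). Over all 18 arrays Il17rc did not pass (−0.16, limma adjusted p = 0.123). Jak2, a kinase of cytokine receptors, differed by −0.19 (limma adjusted p = 0.121), and Extl3, a proposed receptor of Reg proteins, by −0.07 (SE 0.13, limma adjusted p = 0.738) and by 0.10 after median centring.

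The second list, of acute-phase and antimicrobial genes, had 13 measured genes, none of them called by limma in KO HFD versus WT HFD. At an unadjusted p under 0.05, 2 of them passed, where 6096 of 14860 genes did. The median log2 fold change of the list was 0.22. Lcn2 differed by 2.08 (SE 0.88, limma adjusted p = 0.0857) and Orm1, a plasma acute-phase protein, by 0.84 (SE 0.38, limma adjusted p = 0.108). S100a8, a subunit of calprotectin, differed by 0.22 (limma adjusted p = 0.137) and Saa3, a serum amyloid A protein, by 0.27 (limma adjusted p = 0.145). After median centring the last 2 passed (limma adjusted p = 0.0385 and 0.0492). The list averaged 7.66 in KO HFD 10, 6.57 and 6.54 in KO HFD 17 and 18 and 6.44 to 6.58 in WT HFD arrays.

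The third list held partners, receptors and regulators of trefoil factors, of which 16 were measured. In KO HFD versus WT HFD, 3 were called higher and none lower (median log2 fold change 0.05), and in WT HFD versus WT CD 2 were called lower and none higher. Under the 3 scalings 4 or 5 were called higher in the first comparison and 1 to 3 lower in the second, with none in the other direction. Egfr, the epidermal growth factor receptor, was higher by 0.41 in KO HFD than in WT HFD (SE 0.06, limma adjusted p = 0.000401). It differed by −0.25 in WT HFD versus WT CD (limma adjusted p = 0.0586). Dmbt1, a secreted scavenger receptor that binds trefoil factors and is also on the acinar list, was higher by 1.00 in KO HFD than in WT HFD (SE 0.20, limma adjusted p = 0.00270). Muc1, a membrane mucin of duct and acinar cells, was higher by 1.35 (SE 0.35, limma adjusted p = 0.010). Dmbt1 and Muc1 were the 2 called lower in WT HFD versus WT CD (−1.08 and −1.63, limma adjusted p = 0.0243 and 0.0399), and over all 18 arrays Muc1 did not pass (limma adjusted p = 0.0683). Agr2, a protein-folding enzyme of mucus-making cells, differed by 0.34 in KO HFD versus WT HFD (limma adjusted p = 0.0732), and its interaction of 0.71 passed (limma adjusted p = 0.00951). In KO HFD versus KO CD the direction of the calls in the lists turned with scaling, and so did the split over all 14860 genes. That split was 215 higher and 6632 lower as deposited, and 3265 and 1135 after median centring. Quantile normalization gave 1246 and 1177, and cyclic loess 1170 and 1152. The first list had 5 called lower and none higher as deposited (3 lower over 18 arrays), but 3 higher and none lower under each of the 3 scalings. The second had 2 higher and 1 lower (3 and none over 18 arrays), against 7 higher after median centring, 2 after the other scalings and none lower. The third had none higher and 1 lower (2 and 1 over 18 arrays), against 10 higher after median centring, 3 after the other scalings, and 1 lower after quantile normalization alone.

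The genes most like each member were found by Pearson's r over the 17 arrays, given without a test because the arrays share groups and normalization. Tff2 was most like 3 acinar genes: Pla2g1b, the pancreatic phospholipase A2 (r = 0.99), Cela1, an elastase (0.98), and Serpini2, a serine protease inhibitor (0.98). Reg1 was most like Dmbt1 (0.92), Muc1 (0.87) and Slc38a3, a glutamine transporter (0.86). Reg2 was most like Serinc3 (0.85), Adap2 (0.84) and Vtn, the adhesive plasma protein vitronectin (0.84). Reg3g was most like Adap2 (0.92), Adhfe1, a mitochondrial transhydrogenase (0.90), and Galnt3, which starts O-linked glycosylation (0.90). Adap2 was thus shared by Reg2 and Reg3g, and its r fell to 0.77 and 0.88 without KO HFD 10. Tff1 was most like Gkn2 (0.82), Cstdc1 (0.82) and Aipl1 (0.75). KO HFD 18 was the highest array for Tff1 and for each of these genes, and r without that array was not computed. Tff3 had the weakest likenesses, with N4bp2l1 (0.69), Olfr393 (0.68) and Smgc (0.67).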

How the data were processed

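The authors summarised probe intensities to transcript clusters by RMA with Affymetrix Expression Console 1.3 and deposited log2 values (23332 clusters, 18 arrays). Only clusters with a single symbol were used, and the brightest where a gene had several, which left 14860 genes. The exon-level arrays of the same mice were not used here.

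Group means were fitted across all genes with limma 3.58.1 (R 4.3.3; lmFit, contrasts.fit, eBayes) over 17 arrays, without KO HFD 11, with calls at an adjusted p (Benjamini-Hochberg) under 0.05. The fit was tested on simulated data. Each mouse is 1 replicate, and the number of arrays limits the precision. Python 3.11.15 with pandas 2.3.3, numpy 2.4.6 and matplotlib 3.10.9 served for summaries, correlations, promoters and plots.

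The 6 measured members are all named. Of other genes, Extl3, the 4 genes of each pathway list with the smallest p between KO HFD and WT HFD, and the 3 genes most correlated with each member are named, besides examples of marker lists. Reg4 was named after its values were seen. Members and lists were chosen with earlier results of these data known.

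Every member was refitted over all 18 arrays, without each array in turn and with 2 groups alone, and under 3 other scalings, 2 other variance models, all single-symbol clusters, no dim genes, the range of islet numbers as a block and the acinar enzyme mean as a covariate.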

Additional observations from a re-analysis of the deposited data

Results flagged for a closer look

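Tff3 in KO HFD 11 read 10.39, against 7.34 in the nearest of the other 3 KO HFD arrays, and its gap took 0.88 of the range of the group (critical value 0.83 for 4 arrays). It was the only flag of this kind among 24 combinations of gene and group, of which chance alone flags about 1 in 20. The mean of 22 intestinal epithelium genes was 10.54 in that array and 7.24 to 7.37 in the others, and its part in the Tff3 value was not tested.

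The genotype effect differed between diets for 2 members by a test of the difference itself. The interaction was 1.54 on the log2 scale for Reg1 (SE 0.30, limma adjusted p = 0.00409) and 2.45 for Tff2 (SE 0.36, limma adjusted p = 0.00254). With the acinar enzyme mean as a covariate these were 0.80 (SE 0.50, limma adjusted p = 0.340) and 0.46 (SE 0.21, limma adjusted p = 0.215).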

How the results depend on the processing

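No paired analysis was possible because no islet number occurs in more than 1 group. Of 824 alternative values of the members' log2 fold changes, 758 kept direction and side of the threshold. Called members ranged over 0 to 3 in WT HFD versus WT CD, 0 to 1 in KO HFD versus KO CD, 2 to 3 in KO HFD versus WT HFD and 2 to 4 in the interaction when 1 array was left out. The acinar covariate gave 0 called members in the interaction and in both comparisons with WT HFD, and 1 in KO HFD versus KO CD. In KO HFD versus KO CD, median centring called 3 members (Tff1, Tff2 and Tff3), and quantile normalization, cyclic loess, array weights, dropping dim genes and the islet number range as a block called 1 each. Of all 14860 genes, these settings called 4400 (median centring), 2423 (quantile), 2322 (cyclic loess), 7048 (array weights) and 6885 (block). The acinar covariate called 5745 there, and dropping dim genes called 6681 of 10119. The causes were not tested. Counts of all called genes under other scalings stand in the text above.

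Values changed sign only where no call was made. Under median centring Tff3 was −0.037 in KO CD versus WT CD and 0.0037 in WT HFD versus WT CD, and with array weights Reg3g was −0.061 in KO HFD versus KO CD. With the acinar covariate Reg2 was 0.040 in KO CD versus WT CD, Tff1 −0.12 and Tff3 0.084 in WT HFD versus WT CD, and Reg3g −0.048 in KO HFD versus WT HFD. In KO HFD versus KO CD it gave −0.71 for Reg2, −0.50 for Reg3g and −0.050 for Tff2, and in the interaction −0.0036 for Reg2 and −0.032 for Reg3g. Leaving out 1 array, the ranges that crossed zero were −1.25 to 1.497 (Reg2) and −1.01 to 1.30 (Reg3g) in KO HFD versus KO CD, −0.11 to 0.21 (Tff1) in KO HFD versus WT HFD, −0.057 to 0.26 (Tff1) in the interaction, −0.0049 to 0.069 (Tff3) in KO CD versus WT CD and −0.052 to 0.021 (Tff3) in WT HFD versus WT CD. Tff1 and Tff3 lie near background, which limits what their values can show.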

Other observations

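Genes of other cell types that islets can carry with them were read beside the Reg and Tff genes. The mean log2 value of 15 leukocyte genes was highest in WT CD 14 (9.76), and next in KO CD 13 (9.53). The mean of 12 fibroblast and stellate cell genes was highest in the same 2 arrays (9.72 and 9.45). After KO HFD 10, these arrays also had the highest Reg3g values, 9.84 in WT CD 14 and 9.71 in KO CD 13. In KO HFD 10, which had the highest Reg3g value of all (11.42), the means of the leukocyte and fibroblast lists were 8.42 and 8.54. The mean of 7 duct cell genes was 7.95 to 8.30 in KO HFD, 7.72 to 7.90 in WT HFD, 7.98 to 8.39 in KO CD and 8.13 to 8.43 in WT CD arrays, and 8.47 in KO HFD 11. KO HFD and WT HFD did not overlap in the duct mean, but this separation rests on Muc1, a mucin of duct and acinar cells. Muc1 was the only 1 of the 7 called in KO HFD versus WT HFD, where 1.32% of all genes were called higher. The median log2 fold change of the 7 was 0.07. The part of these cell types in the Reg and Tff values was not tested.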
